A study of Oryza sativa with 24 samples.

Results

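Roots and shoots of PB1, a rice genotype that the study describes as sensitive to low phosphate (Pi), were compared after growth under Pi deficiency. The comparison rests on 6 of the 24 Affymetrix rice genome arrays of the study, 3 of PB1 root and 3 of PB1 shoot, chosen by their labels, and on 57258 of 57381 probe sets, since 123 control probe sets were kept apart. The 24 arrays cover root and shoot of PB1 and of Dular, a traditional genotype that tolerates low Pi, each at 1 µM Pi (−Pi) and 320 µM Pi (+Pi). Seedlings were 15 days old and stood in a hydroponic nutrient solution, and each RNA sample pooled the tissue of 3 seedlings, so that each of the 8 groups has n = 3 biological replicates. Root and shoot tissue was collected separately, and the genotype names are used here as the labels give them.

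Roots take up water, Pi, nitrogen, silicon and metals from the medium and load them into the xylem, and the endodermis with its Casparian strip controls what passes. Shoots hold the photosynthetic tissue, where light harvesting, carbon fixation and photorespiration take place, and export sugar to the roots. When Pi is short, plants release phosphatases, raise high affinity Pi carriers and replace phospholipids with sulfolipids and galactolipids, and the SPX proteins and the non-coding RNA IPS1 take part in the signalling of Pi status.

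The values were log2 signals, from which the authors had subtracted each probe set's median signal in the 24 arrays. Only differences between arrays can be read from them, since a value of 0 is the median signal of that probe set in the study. All differences below are root minus shoot on this log2 scale, so that a positive value was higher in root. The standard errors come from 1 limma fit to all 24 arrays and pool the spread of the 8 groups. They can therefore lie above or below the spread of the 6 arrays themselves. The PB1 shoot −Pi arrays spread the most of the 8 groups, so that the pooled errors can be too small for this comparison. Calls required 2-fold or more between the tissues and an adjusted p (Benjamini-Hochberg) no higher than 0.05.

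The shoot arrays stood apart in their spread. Deviations from the group mean (root mean square, log2) were 0.179, 0.177 and 0.219 in the root arrays, against 0.340, 0.542 and 0.319 in the shoot arrays. All 21 arrays other than these shoot arrays lay between 0.153 and 0.286. Shoot replicate 2 correlated with shoot replicates 1 and 3 at r = 0.577 and 0.597 across probe sets, whereas replicates 1 and 3 reached 0.913 and pairs in the other groups 0.854 to 0.963. In that array 3739 probe sets lay at least 2-fold from the mean of the other shoot arrays, and 1570 of these were among the probe sets called between the tissues. By the same measure shoot replicates 1 and 3 had 2673 and 2209, with 1044 and 862 called, and the root arrays 701 to 1177. Of all probe sets 17.3% were called. Of the 123 control probe sets, 16 differed at least 2-fold between root and shoot. All 9 bioB hybridization controls were lower in root, by 3.83 to 5.1, with array means of -4.51, -4.30 and -4.43 in root against -0.09, 0.01 and 0.10 in shoot, while the bioC, bioD and cre controls stayed within 0.27. The 7 others were higher in root, namely 5.8S and 28S rRNA (1.76 and 1.23), the 3 cyclophilin sets (1.20 to 1.51) and 2 actin 5′ sets (1.28 and 1.14). Actin 5′ minus 3′ signal was 0.28 to 0.39 in root and -0.60 to -0.52 in shoot arrays. For ubiquitin it was 0.21 to 0.27 in root and -0.04 to 0.07 in shoot. GAPDH and cyclophilin leaned the other way, with -0.11 to 0.19 and -0.23 to 0.24 in root. Their shoot arrays had 0.08 to 0.33 and -0.01 to 0.59. The study asked for a higher RNA integrity of root than of shoot RNA. The bioB controls averaged -4.74 in PB1 +Pi roots and 0.31 in PB1 +Pi shoots, but -0.07 in Dular −Pi roots. The part of these differences in the results was not tested.

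**Figure D1:**
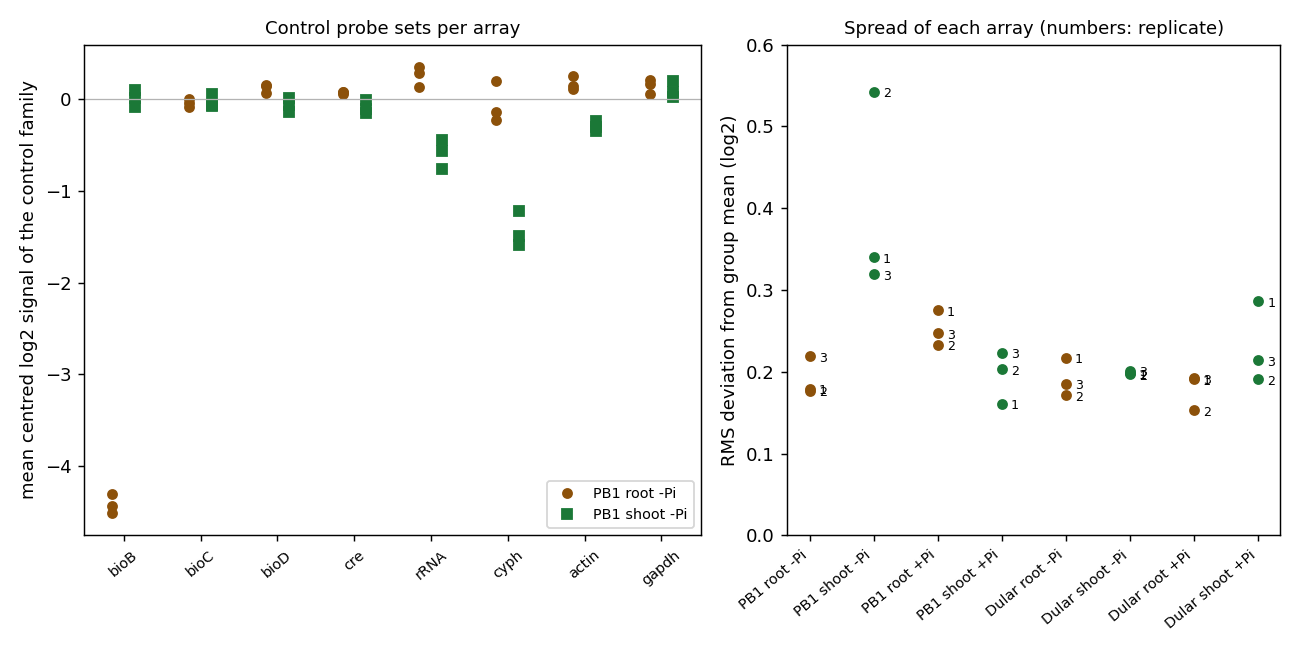
Left, the mean centred log2 signal (y axis) of 8 families of control probe sets in each PB1 −Pi array, root as circles and shoot as squares. The bioB family lies near -4.4 in all 3 root arrays and near 0 in the shoot arrays. Right, root mean square deviation (log2, y axis) of each of the 24 arrays from its group mean, by group and replicate number. PB1 shoot −Pi replicate 2, at 0.542, is the highest.

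The tissue labels were set against marker genes of photosynthetic tissue and of root uptake and barriers. Of 12 root markers, 11 were called higher in root, against 16.1% of all genes, and 1, the ammonium transporter AMT1;1 (-1.12), lower. Of 17 shoot markers, 9 were called lower in root, against 15.2% of all genes, and none higher. Over the 6 arrays, the mean of the 12 root markers was 4.47, 3.65 and 4.49 in root and -1.56, -1.74 and -1.73 in shoot. The mean of the 17 shoot markers was -1.03, -0.91 and -0.63 in root and 0.81, 0.84 and 0.84 in shoot. The tissues did not overlap on either mean. The shoot markers that were not called were the Rubisco small subunit RBCS-A (-0.12), the chlorophyll a-b binding protein CAB2R (-0.51) and 6 of 7 YABBY family genes, transcription factors of lateral organs of the shoot.

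In PB1 under Pi deficiency 5222 probe sets (9.12% of those tested) were called higher in root than in shoot and 4694 (8.20%) lower. Together they made up 17.3% of the array. Counted as genes with 1 probe set each, 2877 of 17905 genes (16.1%) were higher and 2715 (15.2%) lower in root, 31.2% in all. The median difference over all probe sets was -0.004, over those higher in root 1.84, and over those lower in root -2.09. At 16-fold or more 718 probe sets were higher and 636 lower in root, and at 256-fold or more 74 and 49. All 3 root arrays lay above all 3 shoot arrays in 10897 probe sets (19.0%) and below them in 8938 (15.6%), including 5103 and 4590 of those called. In tissue of mixed cell types, fewer cells of a type and less RNA per cell cannot be told apart.

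Single genes were ranked among the 2448 of 17905 genes that have a symbol, by the first probe set of each. Of the probe sets at 256-fold or more this ranking covers 10 of 74 higher and 4 of 49 lower in root, so that larger differences exist than some of those named. On the root side the first 15 of these genes included genes of metal, silicon and water transport and of defence, and a gene of jasmonate synthesis. NAS1, a nicotianamine synthase whose product chelates iron and is the precursor of the iron-binding phytosiderophores of grasses, had signals of 12.10, 10.47 and 12.63 in root and -0.08, 0.00 and -0.02 in shoot arrays, a 3480-fold difference (11.77 ± 0.62, SE; adjusted p = 5.28e-11). Lsi2, which exports silicon towards the stele, had 5.93, 5.77 and 5.43 in root and -5.43, -6.28 and -6.29 in shoot (11.71 ± 0.27, adjusted p = 1.76e-15). Neither gene had a root array within 10 log2 units of a shoot array. Next came the chitinase Cht1 (10.79), the lectin gene Agglutinin (10.59), the tonoplast aquaporin TIP2;1 (9.45), the peroxidase PRX112 (8.88), the expansin EXPA3 (8.54), NAS2 (8.41) and the Pi transporter PT2 (8.15). A second probe set of PRX112 read 0.88 and was not called. Agglutinin had a wide spread in shoot, where replicate 3 read -1.91 and the other arrays -5.25 and -5.23. AOS4 (8.14), an allene oxide synthase of the jasmonate pathway, the lipoxygenase LOX3 (7.87) and the aluminium transporter Nrat1 (7.97) followed. The 15 genes also held 3 homeobox genes, OSH1 (7.69), HOS9 (7.51) and hox14 (7.35). OSH1 is a KNOX gene best known from the shoot meristem. Its root arrays read 7.6, 7.56 and 7.88 and its shoot arrays -0.03, 0.00 and -0.01.

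On the shoot side the first genes with a symbol encoded a germin-like protein, an aquaporin and a sugar carrier. GER5, the germin-like protein, had -6.97, -6.93 and -4.91 in root and 5.74, 5.24 and 5.54 in shoot (-11.77 ± 0.45, adjusted p = 7.27e-13), which is 3500-fold. PIP2;7, an aquaporin of the plasma membrane, had -5.78, -5.72 and -6.24 in root and 5.68, 5.89 and 5.71 in shoot (-11.68 ± 0.19, adjusted p = 2.22e-17). Both genes thus mirrored NAS1 and Lsi2 in size. SWEET1B, a sugar carrier, differed by -9.12, BURP16, a BURP domain gene, by -8.87, the laccase LAC20 by -7.84 and a second germin-like gene, GER8, by -7.28. The root arrays of GER8 ranged widely (-8.39, -5.90 and -1.42), and its adjusted p was 0.0539 when the 6 arrays were fitted alone. The rest of the 15 genes with a symbol were HAP3I (-6.77), a subunit of the NF-Y transcription factor, the EGY3 peptidase-like gene (-6.68), the potassium transporter HAK27 (-6.57), the plastid aldolase ALDP (-6.41), the kinase CIPK5 (-6.33), the zinc finger gene C3H54 (-6.26), P5CS2 of proline synthesis (-6.18), ELA3 (-6.04) and AARE2 (-5.96). The spread of shoot replicate 2 was visible in CIPK5, with -2.62, -2.58 and -2.75 in root and 4.70, 1.62 and 4.72 in shoot. For P5CS2 the other 3 probe sets read 0.99, 0.00 and -0.02, so that its value belongs to 1 probe set of 4, and a second probe set of AARE2 read -0.48 and was not called.

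**Figure D2:**
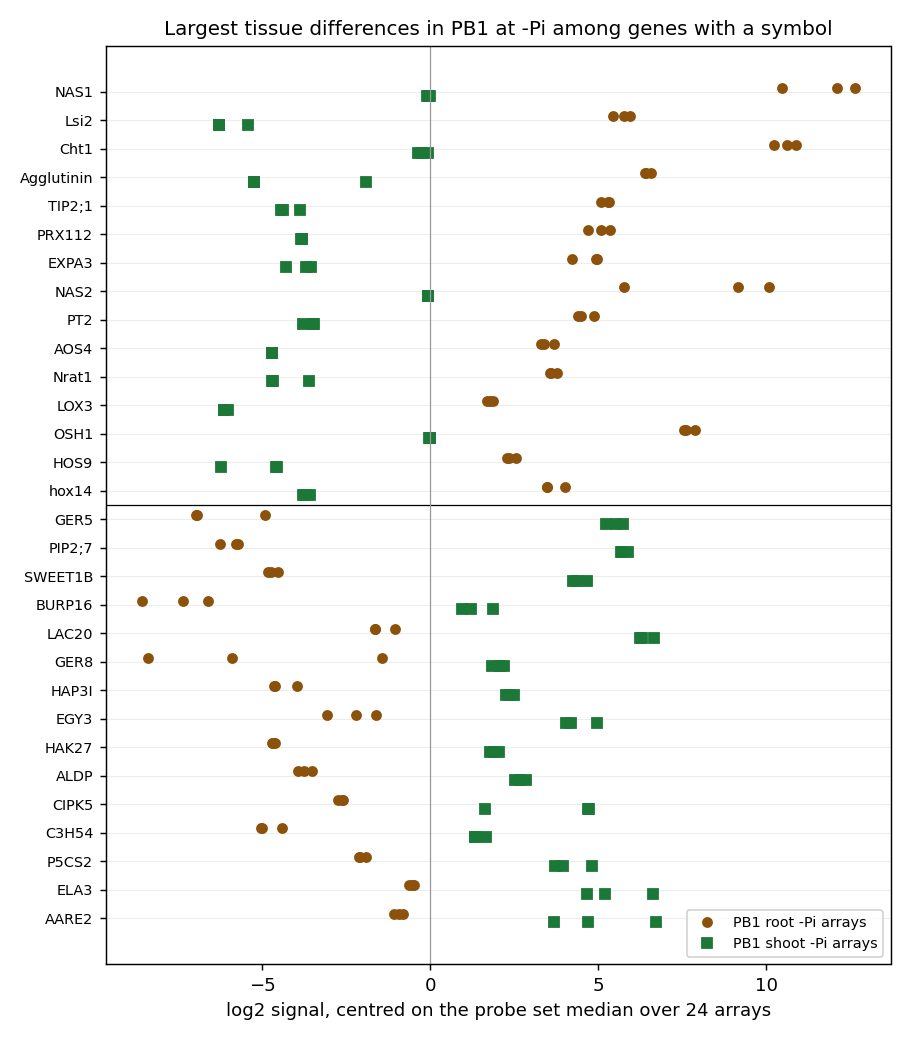
Centred log2 signal (x axis) of the 15 genes with the largest difference towards root (top) and the 15 towards shoot (bottom), among genes with a symbol, in the 6 PB1 −Pi arrays, root arrays as circles and shoot arrays as squares. For each gene the root and shoot arrays are separate. NAS2 and GER8 in root and Agglutinin, CIPK5 and AARE2 in shoot spread over more than 3 log2 units.

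Genes of photosynthesis made up the most uniform lists on the shoot side. Of 10 genes of the light reactions 8 were lower in root, against 15.2% of all genes, and none higher, with a median of -2.81 against 0.01 over all genes. The largest were NDH-M, a subunit of the chloroplast NDH complex (-2.43 ± 0.05 in root and 1.93 ± 0.19 in shoot, SD, n = 3; difference -4.36), LIR1 (-4.28), LFNR1 (-4.12) and PSB28 (-3.24). Of 12 genes of carbon fixation and photorespiration 8 were lower and 1 higher in root (median -2.59). Rubisco activase, RCA, read -2.15, -2.33 and -2.45 in root and 1.85, 1.99 and 2.01 in shoot (-4.26 ± 0.17, adjusted p = 1.01e-12). The exception was GLO4, 1 of the glycolate oxidase genes, at 2.51, whereas GLO1 was at -4.07 and GLO5 at -2.99. GLO1 had a second probe set at 0.86, and glycolate oxidases are close relatives, so that the split between them is uncertain. Of 14 genes of chlorophyll synthesis 12 were lower in root (median -2.19), among them PORA (-4.71), CAO (-4.14) and the magnesium chelatase subunits CHLH (-3.30), CHLD (-2.93) and CHLI (-1.56). A second probe set of CHLH was not called (-0.44, adjusted p = 0.657). GLK1 (-4.31) and GLK2 (-4.70), factors that promote chloroplast development, were lower in root too.

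Pi carriers were split. PT2, PT6, PT4 and PT7 were higher in root (8.15, 7.21, 1.85 and 1.19), PT1 was lower (-3.59) and 6 of the 11 genes of Pi transport were not called, of which 5 were flat over all 24 arrays, PT8 among them. PT6 had 8.67, 8.82 and 8.26 in root and 2.05, -0.03 and 2.1 in shoot (7.21 ± 0.38, adjusted p = 5.29e-11). PT1 had -1.79, -1.56 and -1.39 in root and 2.29, 1.65 and 2.08 in shoot (-3.59 ± 0.38, adjusted p = 5.37e-07), and a second probe set of the gene was not called (-0.43). Neither carrier had overlapping groups. Of all genes 16.1% were higher and 15.2% lower. Of 8 signalling genes, SPX3 (2.53 ± 0.43, adjusted p = 0.000123) and SPX5 (2.2 ± 0.30, adjusted p = 9.91e-06) were higher in root, and SPX1 (0.21), SPX2 (0.51), SPX4 (-0.55) and the factors PHR1 (0.08), PHR2 (-0.24) and PHR3 (0.11) were not called. SPX2 read 2.16, 2.31 and 2.40 in root and 2.64, 0.44 and 2.25 in shoot, again with shoot replicate 2 apart.

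Iron genes were called on both sides. Of 12 genes 5 were higher in root, against 16.1% of all genes, namely NAS1, NAS2, NAS3 (1.38), the phytosiderophore-iron carrier YSL15 (5.99 ± 0.75, adjusted p = 3.75e-06) and the iron carrier IRT1 (4.36 ± 0.52, adjusted p = 2.14e-06), while the vacuolar carrier VIT1 (-4.14), the reductase FRO1 (-3.61) and the factor IDEF1 (-1.41) were lower, against 15.2% of all genes. NAS2 read 9.17, 5.78 and 10.08, YSL15 5.78, 3.00 and 6.51, and IRT1 3.62, 1.97 and 4.20 in the root arrays. Root replicate 2 was the lowest in each of them, as in NAS1. The shoot arrays of these genes lay between -1.57 and 0.00. Of 41 carriers of zinc, manganese, copper and other metals, 14 were higher in root, with Nrat1, ZIP1 (5.31), HMA2 (5.11), ZIP3 (4.36) and NRAMP5 (3.49) among them, and 4 were lower, led by ZIP8 (-3.19). Of 7 metallothioneins 5 were higher in root, led by MT4C (4.07).

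Of 16 genes of nitrogen uptake and assimilation 7 were higher and 2 lower in root, against 16.1% and 15.2% of all genes, and 7 were not called. AMT1;2 (3.61), AMT2;2 (3.41) and NRT2.3 (3.25) had the largest values towards root, and those lower in root were nitrate reductase NIA1 (-2.88) and the ammonium carrier AMT1;1 (-1.12). A second NIA1 probe set read 0.01. Among 26 aquaporins and silicon transporters 7 were higher in root, led by Lsi2, TIP2;1, Lsi1 (5.69), PIP2;4 (5.26) and PIP2;5 (5.19), and 3 were lower, PIP2;7, NIP1;1 (-2.55) and TIP4;1 (-1.5). The 24 potassium and sodium carriers had 5 higher in root, among them HKT1;5 (3.45), HAK1 (2.77) and the channel AKT1 (2.07), and 7 lower, with HAK27, HAK17 (-5.88) and HAK5 (-5.05) at the end. The share of potassium and sodium carriers that was higher in root lay near the 16.1% of all genes, and the share lower in root lay above the 15.2%. Of 16 sugar carriers 6 were lower in root and 1, the sucrose carrier SUT4 (2.00), higher. SUT1, which loads sucrose into the phloem, was at -1.72.

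Wall and barrier genes separated by family member. CASP1, of the Casparian strip, had 3.91, 3.7 and 3.15 in root and -3.10, -3.10 and -3.11 in shoot (6.69 ± 0.28, adjusted p = 1.98e-12), and of its 22-member family 7 were higher and 6 lower in root, from CASPL1C1 (7.11) to CASPL2C2 (-5.18). Expansins loosen the wall in growing cells. Of 29 measured 12 were higher in root, against 16.1% of all genes, with EXPA3, EXPB18 (7.03) and EXPA8 (6.80) first, and 2 were lower, against 15.2%, the expansin-like EXLA2 (-1.39) and EXLA1 (-1.26). Of 20 cellulose synthase-like genes 9 were higher, led by CSLC3 (6.31), and 3 lower in root. Laccases, which take part in lignin formation, had 1 of 9 higher, LAC3 (2.72), and 3 lower, LAC20, LAC7 (-3.46) and LAC4 (-2.02). Of 8 germin-like genes 5 were higher in root, by 3.55 to 4.76, and GER5 and GER8 lower.

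Auxin genes likewise went both ways. The root efflux carrier PIN2 read 3.23, 3.32 and 2.77 in root and -3.02, -3.0 and -2.90 in shoot (6.08 ± 0.20, adjusted p = 9.06e-14), PIN9 differed by 4.80, and PIN3A (-2.03) and PIN5A (-1.37) were lower in root. Of 9 GH3 genes, which conjugate hormones to amino acids, 5 were higher in root, led by GH3-8 (5.16), and none lower, against 16.1% and 15.2% of all genes. The 26 Aux/IAA repressors had 7 called each way, from IAA12 (3.83) to IAA14 (-3.47). Root replicate 3 of IAA14, at 0.13, stood apart from -3.55 and -2.96, and the gene was not called on the 6 arrays alone (adjusted p = 0.1). Of 13 root development genes 5 were higher in root, namely RAA1 (6.15), MADS27 (5.64), WOX6 (5.48), WOX11 (5.43) and SHR1 (1.65). The quiescent centre gene QHB (0.32) and SCR1 (-0.36) were not called.

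None of 21 genes of DNA replication was called, although their median was 0.45 and the values ran from -0.36 to 0.94. Of 16 cyclins 3 were higher in root, near the share of 16.1% among all genes, and none lower, against 15.2%, the largest value being that of CYCD5-3 (2.05). The 18 reference genes (actins, tubulins, ubiquitins and the like) held 1 call, ACT2 (1.19), which fell to 0.97 and below the 2-fold threshold after quantile normalization. Of 14 jasmonate JAZ repressors 3 were higher in root, JAZ5 (3.82), JAZ8 (2.83) and JAZ11 (2.32), and 6 when the 6 arrays were fitted alone. Of 14 genes of diterpenoid phytoalexins CYP76M7 (3.42) was higher and CYP71Z6 (-4.14) lower in root. CYP76M7 read 6.70, 6.16 and 6.34 in root and 4.58, -0.34 and 4.71 in shoot, and CYP71Z6 -0.79, -0.69 and -0.77 in root and 2.57, 5.69 and 1.92 in shoot. Shoot replicate 2 was the extreme value of both, and neither was called on the 6 arrays alone (adjusted p = 0.242 and 0.0546).

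**Figure D3:**
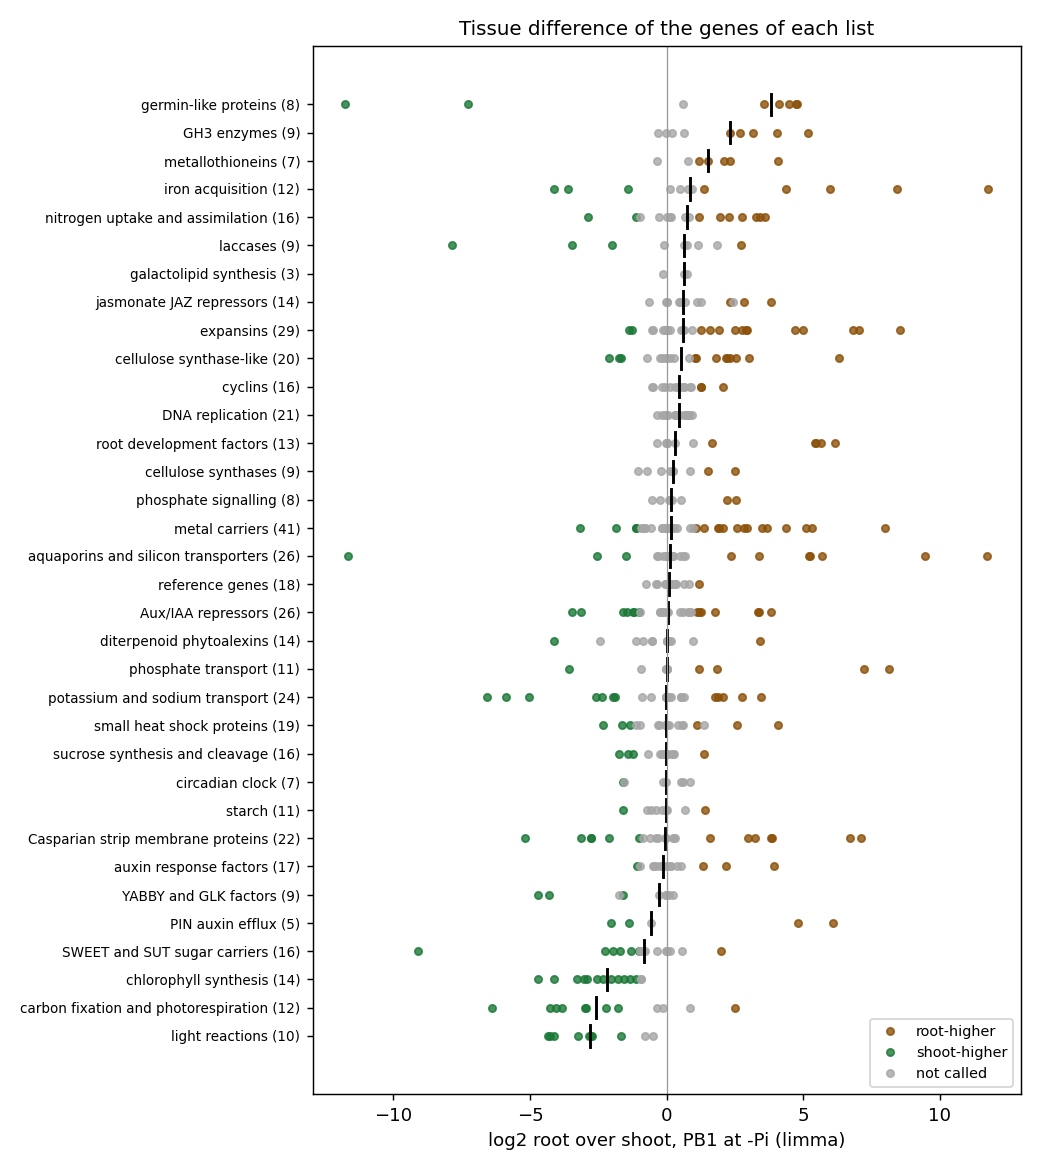
Difference of root minus shoot (log2, x axis) in PB1 at −Pi for each gene of 34 lists, with the number of measured genes in brackets; brown points were called higher in root, green points lower in root, grey points were not called, and the black bar is the median of the list. The lists of photosynthesis lie at the bottom, with medians of -2.19 to -2.81, and most other lists hold calls on both sides of 0.

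The tissue difference of PB1 at −Pi was set against that of PB1 at +Pi. The means at +Pi rest on 6 other arrays, whereas the standard errors come from the same fit. At +Pi 4732 probe sets (8.26%) were higher and 4476 (7.82%) lower in root. Of those higher at −Pi 3614 were also higher at +Pi, which is 69.2% of the −Pi calls and 76.4% of the +Pi calls. Of those lower at −Pi 3722 were also lower at +Pi (79.3% and 83.2%), and 13 and 5 of the −Pi calls were called in the opposite direction at +Pi. The difference itself, tested as a contrast of contrasts, was called in 607 probe sets (1.06%) with a higher and 781 (1.36%) with a lower root over shoot difference at −Pi, 1388 (2.42%) in all and 651 (3.64%) when counted as genes. It fell to 796 calls in all when only the 12 PB1 arrays were fitted.

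Several Pi starvation genes differed in this way. PT6 differed by 7.21 at −Pi and by -0.01 at +Pi, where its arrays lay between -0.14 and -0.09 in both tissues (difference 7.22 ± 0.54, adjusted p = 3.37e-07). The phosphatase gene Os10g02750 had 8.22, 8.84 and 7.80 in −Pi roots, -0.01, 0.00 and 0.00 in −Pi shoots, and -0.04 to -0.01 in all +Pi arrays (difference 8.30 ± 0.22, adjusted p = 4.62e-13). For both genes the −Pi roots were the only PB1 group above 2.1. IPS1 was high at −Pi in both tissues. It read 4.33, 4.38 and 4.11 in root and 2.11, 2.50 and 2.15 in shoot at −Pi, and -6.00, -5.77 and -5.74 in root and -2.67, -3.40 and -3.02 in shoot at +Pi. The tissue difference of IPS1 thus was 2.02 at −Pi and -2.81 at +Pi (difference 4.83 ± 0.30, adjusted p = 3.72e-08). SPX3 also had a larger difference at −Pi, with 2.53 at −Pi and -0.50 at +Pi, which was not called (difference 3.03, adjusted p = 0.00664). PHO1;3, related to the xylem loading protein PHO1, differed by -0.94 at −Pi, which was not called, and by -3.75 at +Pi (difference 2.81, adjusted p = 0.00984).

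Of the 40 loci that the study names, 12 had a higher and 2 a lower tissue difference at −Pi than at +Pi, against 1.35% and 2.29% of all genes. These loci come from a table that the study drew from these arrays for their rise in Dular roots, and they are not independent evidence of a direction. At −Pi itself 11 were higher and 3 lower in root (median 0.55), and at +Pi 7 and 10 (median -0.01), against 14.7% and 14.2% of all genes. Enzymes of phospholipid replacement were among the 12. The sulfolipid synthase genes SQD2 Os01g04920 and SQD2 Os07g01030 differed by 0.44 and -1.38 at −Pi and by -2.02 and -2.94 at +Pi (differences 2.46 and 1.56, adjusted p = 8.94e-05 and 1.53e-06). The glycerophosphodiester phosphodiesterase gene GDPD Os03g40670 gave 0.72 at −Pi and -2.76 at +Pi. The 2 loci with a lower difference were of the same family, GDPD Os02g31030 (0.74 at −Pi and 4.53 at +Pi) and GDPD Os08g42390 (-0.14 and 3.08), whose +Pi shoots were the lowest PB1 group (-5.73 to -4.64 and -4.46 to -3.88).

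Outside Pi genes, the tissue difference of the copper transporter COPT2 was 1.38 at −Pi and 5.58 at +Pi (difference -4.20, adjusted p = 4.25e-05), and that of the nitrate transporter NRT2.2 was 0.13 at −Pi and 4.31 at +Pi (difference -4.18, adjusted p = 1.03e-08). NRT2.2 read 0.20, 0.01 and 0.00 in −Pi roots and 3.88, 4.88 and 4.06 in +Pi roots, and stayed between -0.14 and 0.00 in all shoots. AMT1;2 (difference -2.01) and NIA1 (-1.87) went the same way. ASMT, of melatonin synthesis, gave 5.04, and among the PB1 arrays its +Pi shoots alone were high, at 4.51, 6.28 and 4.59. The germin-like gene GER3 (3.19), the auxin carrier PIN9 (2.51) and the oxophytodienoate reductases OPR4 (2.46) and opda (2.37) had larger root over shoot differences at −Pi. CPS1, of gibberellin synthesis, differed by 2.89 at −Pi and -2.94 at +Pi (difference 5.83, adjusted p = 0.000273), with +Pi roots at -4.89, -2.50 and -1.40. The poly-A spike controls averaged -2.04 in PB1 +Pi shoots and 0.10 to 0.19 in the −Pi shoot arrays, and their part in these differences was not tested.

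**Figure D4:**
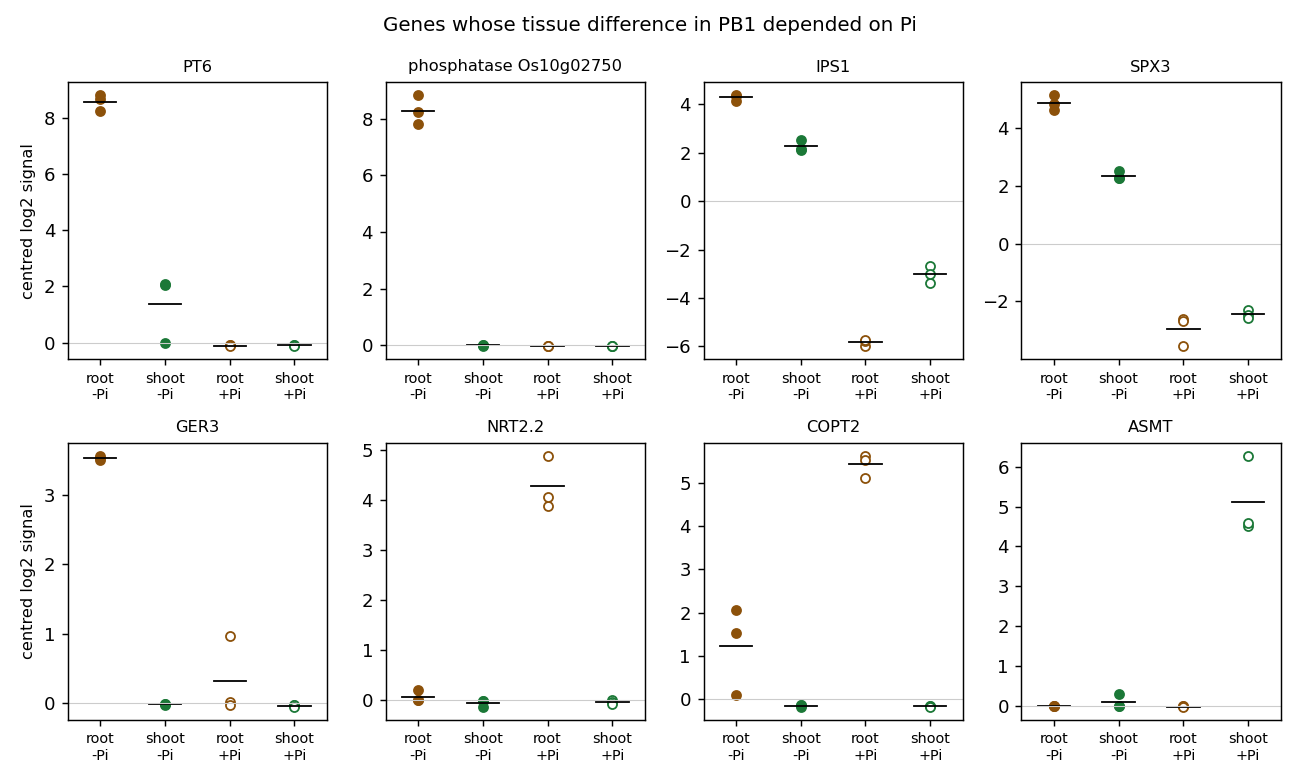
Centred log2 signal (y axis, scaled per panel) of 8 genes in the 4 PB1 groups, with 1 point per array, filled at −Pi and open at +Pi, and the group mean as a bar. PT6, the phosphatase gene and GER3 stand out in −Pi roots, NRT2.2 and COPT2 in +Pi roots and ASMT in +Pi shoots, while IPS1 and SPX3 are high in both −Pi tissues.

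The same tissue difference in Dular at −Pi was called in 4840 probe sets (8.45%) higher and 4761 (8.31%) lower in root. Its means rest on 6 arrays that did not enter the PB1 means. The standard errors of both comparisons come from the same fit, so that their calls are not fully separate. Of the PB1 calls higher in root 2770 were shared (53.0% of the PB1 and 57.2% of the Dular calls), of those lower in root 3205 (68.3% and 67.3%), and 94 and 60 were called in the opposite direction in Dular. The difference between the genotypes was called in 3341 probe sets (5.83%) with a higher and 2998 (5.24%) with a lower root over shoot difference in PB1, 6339 (11.1%) in all. Counted as genes these were 1682 (9.39%) and 1609 (8.99%), together 3291 (18.4%). The bioB controls, with array means of -4.51 to -4.30 in PB1 −Pi roots, averaged -0.07 in Dular −Pi roots and 0.18 in Dular −Pi shoots. They thus ran with genotype in roots, and their part in this contrast was not tested.

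At −Pi, shoot markers were nearer to the shoot level in PB1 roots than in Dular roots. The median difference of the 17 shoot markers was -1.66 in PB1 and -3.36 in Dular. Of the 17, 4 were called less negative in PB1 and none more negative, against 9.39% higher and 8.99% lower among all genes. Their mean lay between -1.03 and -0.63 in PB1 −Pi roots and between -2.88 and -2.83 in Dular −Pi roots, and 12 of the 17 had every PB1 root array above every Dular root array, against 25.2% of all genes. The shoot arrays were close, at 0.81 to 0.84 in PB1 and 0.59 to 0.71 in Dular. RCA read -2.15, -2.33 and -2.45 in PB1 roots and -7.47, -7.39 and -7.97 in Dular roots (difference between the genotypes 4.77 ± 0.23, adjusted p = 2.33e-10). YAB2 read -1.44, -1.25 and -0.23 in PB1 roots and -8.21, -8.20 and -8.00 in Dular roots (7.33 ± 0.74, adjusted p = 1.52e-06), and GLK2 gave 4.96 (adjusted p = 5.47e-06). For YAB4 and YAB5, root replicate 3 alone was high in PB1 at −Pi (-0.18, 0.37 and 2.40, and -0.27, 0.27 and 2.50). The mean of the 7 YABBY genes was -0.43, -0.22 and 0.65 in PB1 −Pi roots, -2.13, -0.20 and 0.49 in PB1 +Pi roots and -3.0 to -2.77 in Dular −Pi roots. OSH1, named above, was at -0.05, -0.02 and 0.01 in Dular roots (7.70 ± 1.55, adjusted p = 0.00149). In the contrast of the genotypes at −Pi, 3 of the 12 root markers had a higher and 5 a lower difference in PB1. In +Pi roots the shoot markers went both ways. LHCP and PORB averaged -1.32 and -1.79 in PB1 and -0.75 and -0.42 in Dular. RCA and PSAG averaged -1.47 and -0.63 in PB1 and -3.67 and -2.70 in Dular. The part of the shoot markers in the other differences between the genotypes was not tested.

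Iron and zinc genes also differed by genotype at −Pi. NAS1 read 0.00, 1.53 and 0.01 in Dular roots (difference between the genotypes 11.21 ± 0.88, adjusted p = 8.27e-08), NAS2 0.02, 1.05 and -0.11 (7.83 ± 1.30, adjusted p = 0.000264) and YSL15 0.28, 0.44 and 0.82 (4.36 ± 1.06, adjusted p = 0.00639). In +Pi roots NAS1 and NAS2 averaged 9.6 and 7.94 in Dular and 10.31 and 7.62 in PB1. YSL15 averaged 7.65 in Dular +Pi roots and read 6.72, 5.22 and 3.36 in PB1 +Pi roots. The genotypes were not tested against each other at +Pi. At −Pi the PB1 roots lay above the Dular roots in all 3 genes. IRT1 went the other way, with 3.62, 1.97 and 4.20 in PB1 roots and 6.47, 6.73 and 6.38 in Dular roots (-2.37 ± 0.74, adjusted p = 0.03). ZIP3 had 1.75, 1.94 and 2.32 in PB1 roots and -2.05, -3.0 and -2.02 in PB1 shoots, against -4.58, -3.97 and -4.06 in Dular roots and 3.35, 3.55 and 3.62 in Dular shoots, so that its tissue difference was 4.36 in PB1 and -7.71 in Dular (12.07 ± 1.22, adjusted p = 1.57e-06). Other leading genes with a symbol and a higher root over shoot difference in PB1 than in Dular were the apyrase gene ADPase (9.87), the ethylene-forming enzyme gene ACO1 (9.14), the glutamate synthase GLT2 (7.24), Cht1 (7.24) and SWEET11 (6.77). Within PB1, SWEET11 was lower in root (-1.98) and was not called on the 6 arrays alone (adjusted p = 0.0936). The value for ACO1 rests in part on shoot replicate 2, where it read -7.28 against 0.83 and 1.15 in the other PB1 shoot arrays.

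Towards a lower root over shoot difference in PB1, again among genes with a symbol, CRSH2, which makes the stringent response nucleotide of chloroplasts, led with -4.66. It was at 3.79, 4.74 and 4.86 in PB1 shoots and at -3.09 to -2.65 in Dular shoots. C3H43 (-4.59) and HIRL2 (-4.56) were high in Dular roots, at 4.58 to 4.76 and 3.02 to 3.80, and near or below 0 in PB1 roots. PT1 differed by -3.59 in PB1 and 0.77 in Dular (-4.36 ± 0.54, adjusted p = 1.51e-05), whereas PT6 was at 7.21 in PB1 and 6.55 in Dular and did not pass (difference 0.66 ± 0.54, adjusted p = 0.583). Expansins had 3 higher and 6 lower differences in PB1 of 29, with EXPB8 lowest (-3.96), laccases 0 and 5 of 9, and cellulose synthases 0 and 4 of 9, against 9.39% higher and 8.99% lower among all genes.

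**Figure D5:**
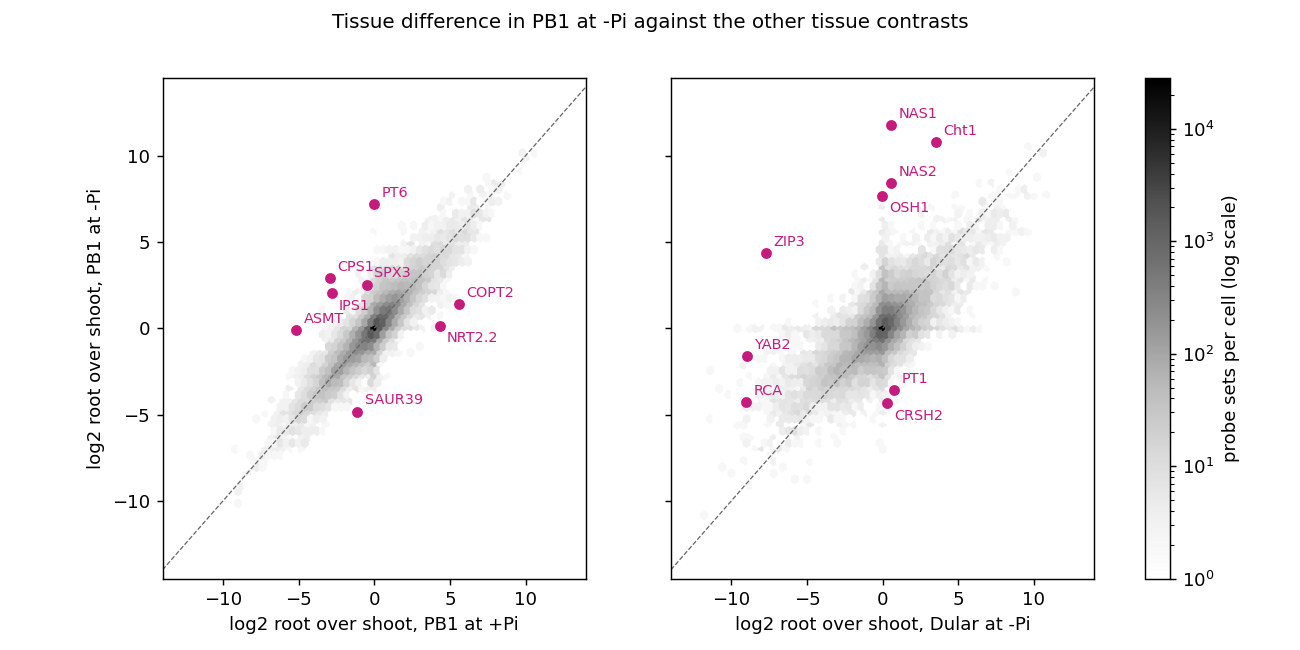
Difference of root minus shoot (log2) in PB1 at −Pi (y axis) against the same difference in PB1 at +Pi (left) and in Dular at −Pi (right, x axes), for 57258 probe sets counted per cell on a log grey scale, with named genes in pink and the line of equal values dashed. Points gather along the line more closely on the left, and NAS1, NAS2, OSH1 and ZIP3 lie far above it on the right.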

How the data were processed

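Transcripts were measured in RNA of root and shoot tissue. Per the methods, the authors summarized the scanned arrays with GC-RMA in GeneSpring, and the deposited values are log2 signals centred per probe set on the median of the 24 arrays. Scanner intensities were not used here, so that no filter on dim probes was applied. Precision is limited by the 3 arrays in each group. The annotation of the platform gave 1 gene for 22436 probe sets, several for 95 and none for 34727, and symbols were updated through the table of assembly ASM3414082v1 (names only). Of the study's list of responsive loci 1806 entries were at hand, and 40 loci were paired through it.

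A model with 1 mean for each of 8 groups was fitted by limma 3.58.1 in R 4.3.3 (lmFit, eBayes; prior degrees of freedom 0.789) and contrasts adjusted by Benjamini-Hochberg over 57258 probe sets. The fit was tested on simulated data. Named genes were, among the 2448 genes with a symbol, the 15 largest called differences each way with separate arrays and the 10 largest each way between contrasts, and further the extremes of each of 34 lists (512 genes) and list members tied to a tissue, the markers and the study's loci. For a gene with several probe sets the first by suffix and identifier was taken. The members and lists were chosen with earlier results of these data known. Alternatives were other sample sets, group weights, normalizations, prior variances, a replicate block, thresholds, other probe sets and leaving out each array.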

Additional observations from a re-analysis of the deposited data

Results flagged for a closer look

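The root over shoot difference of PB1 differed between −Pi and +Pi in 1388 probe sets and, at −Pi, between PB1 and Dular in 6339, each by a test of the difference itself. Among genes with a symbol, the 10 largest differences each way between −Pi and +Pi (log2) were positive for PT6 (7.22), CPS1 (5.83), ASMT (5.04), GER3 (3.19), SPX3 (3.03), PHO1;3 (2.81), CHS (2.65), PIN9 (2.51), OPR4 (2.46) and opda (2.37). They were negative for COPT2 (-4.20), NRT2.2 (-4.18), SAUR39 (-3.71), BURP16 (-3.37), CSLF7 (-3.05), APX2 (-2.41), MYBS1 (-2.39), HAP3I (-2.31), TGAL5 (-2.29) and AMT1;2 (-2.01). The loci of the study's table that have no such place added positive differences for the phosphatase gene Os10g02750 (8.30), IPS1 (4.83), GDPD Os03g40670 (3.48), PAP Os08g17784 (3.42), SQD2 Os01g04920 (2.46), RNase T2 Os08g33710 (1.99), SQD2 Os07g01030 (1.56), SQD1 Os05g32140 (1.51) and SPX1 (1.11), and negative ones for GDPD Os02g31030 (-3.79) and GDPD Os08g42390 (-3.22).

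Among genes with a symbol, the 10 largest each way between PB1 and Dular at −Pi were positive for ZIP3 (12.07), NAS1 (11.21), ADPase (9.87), ACO1 (9.14), NAS2 (7.83), OSH1 (7.70), YAB2 (7.33), Cht1 (7.24), GLT2 (7.24) and SWEET11 (6.77). They were negative for CRSH2 (-4.66), C3H43 (-4.59), HIRL2 (-4.56), PT1 (-4.36), SAUR39 (-4.31), BURP16 (-4.05), EXPB8 (-3.96), RBBI3.3 (-3.95), ACC2 (-3.95) and ILI6 (-3.87).

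Control probe sets outside the comparison showed signal that was higher in root at −Pi: 5.8S rRNA by 1.76, cyclophilin by 1.51 (3′), 1.43 (middle) and 1.20 (5′), actin 5′ by 1.28 and 1.14, and 28S rRNA by 1.23.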

How the results depend on the processing

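The 9916 calls of the tissue difference in PB1 at −Pi became 17549 with no fold threshold, 4824 at 4-fold or more and 5592 when genes were counted, and 9619 to 10392 when 1 array was left out in turn. With only the 6 PB1 −Pi arrays fitted there were 8507. The 1388 differences between −Pi and +Pi became 796 with the 12 PB1 arrays alone, 2994, 419 and 651 under the same 3 changes of counting, and 1185 to 1512 with 1 array left out. The share of higher differences among them was 43.7% as reported, 31.2% with no fold threshold and 58.7% at 4-fold. The 6339 differences between PB1 and Dular became 10824, 2642 and 3291, and 5886 to 6531 with 1 array left out. Weights per group, both normalizations between arrays, the prior variance settings and leaving out flat probe sets kept all 3 counts within 1.5 times. Same-numbered root and shoot arrays did not deviate together (r = -0.103, 0.043 and 0.010), and the replicate block gave 9915, 1409 and 6315 calls.

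Other probe sets of a named gene gave the opposite sign for P5CS2 (0.99), NIA1 (0.01), GLO1 (0.86), SQD2 Os07g01030 (0.04), GDPD Os01g55780 (-4.65), CHS (0.05) and HAK5 (0.12), and the cause was not tested. A further 11 probe sets of 10 called genes kept the sign but not the call, namely those of PRX112 (0.88), AARE2 (-0.48), CHLH (-0.44), PT1 (-0.43), RBCS-C (-0.02), PSAG (-0.87), CESA1 (0.48), PAP Os08g17784 (0.63) and CHS (-0.10) and a pair of P5CS2 (0.00 and -0.02). No other setting turned a called named gene round. Leaving out PB1 shoot replicate 2 gave 5029 probe sets higher and 4817 lower in root. Counts within the lists, recomputed without this array after seeing the data, changed by 1 gene in 14 of 34 lists. The changes of over 1.5 times or away from 0 were in laccases (2 higher in place of 1), auxin response factors (2 lower in place of 1) and the circadian clock (1 higher in place of 0). Sucrose genes had 2 lower in place of 3, small heat shock proteins and cyclins 2 higher in place of 3, and YABBY and GLK factors 2 lower in place of 3, YAB2 being lost (adjusted p = 0.108). The other 7 lists had 4 to 15 genes on the side that changed, and of the study's loci 10 in place of 11 were higher. YAB2 was also lost without root replicate 1 or 2, on the 6 or 12 arrays alone and with a trend in the prior variance, COPT2 without root replicate 2 and on 6 arrays. The 3 arrays per group and the wide shoot group limit calls of moderate size.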
